A study of Homo sapiens with 36 samples.

Results

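A2780 is a human ovarian cancer cell line. The comparison described here asked whether its platinum-sensitive and platinum-resistant forms still differed in their transcriptional response to carboplatin once serine and glycine had been taken out of the medium. The sensitive parental cells (wt) and their isogenic resistant counterpart (cis), a line selected by chronic cisplatin exposure, were both grown without serine and glycine (-SG) in a homemade RPMI medium with dialyzed serum, with or without carboplatin (carbo). Of the 36 libraries of the series, 12 were of these 4 conditions, with 3 each of wt -SG (libraries 7 to 9), wt -SG carbo (10 to 12), cis -SG (19 to 21) and cis -SG carbo (22 to 24). The labels give the carboplatin dose as 6 M, while the study's other assays are described in the micromolar range, so the dose of the sequenced cells is uncertain. According to the study's legends such libraries are technical replicates, and the p-values measure the spread between these libraries, not between independent cultures. Each line is a single cell line, and whatever else sets cis cells apart from wt cells cannot be told apart from their resistance.

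Carboplatin is a platinum drug that forms adducts and crosslinks in DNA. Cells meet such damage with p53, which switches on genes of arrest and death such as CDKN1A, with a halt of the cell cycle that lowers the genes of G2 and mitosis, and with the Fanconi anemia, homologous recombination and nucleotide excision repair pathways. Serine feeds glycine, glutathione and the folate cycle that supplies nucleotides. Cells without it in the medium depend on the synthesis enzymes PHGDH, PSAT1 and PSPH, which the transcription factor ATF4 drives when amino acids are scarce. NF-kB is a transcription factor of inflammation that DNA damage can also activate.

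The counts on genes ran from 14732873 to 20441582 in the 12 libraries. Library 11 of wt -SG carbo stood apart: its counts, relative to its own condition, fell by 0.0842 log2 units per doubling of transcript length, while the other 11 libraries lay between -0.0208 and 0.0490. Libraries 23 and 24 of cis -SG carbo had 17.9% and 14.9% of their reads on no annotated feature, against 6.92% to 8.77% in the other 10. The counts of calls that change most with these libraries are given with and without them. Without libraries 23 and 24 the treated cis condition has 1 library, 22, which is then assumed to vary like the others. Library 22 itself lay further from the mean of the others of its condition (SD of log2 differences over genes 0.225) than libraries 23 (0.203) and 24 (0.157) did. A call lost in that fit is therefore not evidence of a lost response. Of 7 immune markers 5, PTPRC, CD3E, CD14 and CD68 among them, and of 4 matched endothelial markers 3, CDH5, KDR and CLDN5, had at most 3 counts in each of the 12 libraries. The others reached 4 counts (LYZ), 14 counts (NKG7) and 5 counts (VWF), LYZ and VWF with carboplatin in wt cells, and the summed lists lay between 0.159 and 0.945 CPM for immune and between 0.0534 and 0.775 CPM for endothelial markers, where CPM are counts scaled to library size. Of 12 ovarian and Müllerian epithelial markers 4, KRT7, MUC16, ESR1 and SOX17, also had at most 3 counts in each library, and the epithelial markers summed to 184 to 209 CPM in wt -SG and 45.5 to 49.1 CPM in cis -SG cells.

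Among the gene lists used here, those of G2/M and mitosis and of NF-kB targets had the most negative and the most positive median line difference. The NF-kB median covers only the 15 of 21 listed targets with enough counts. A target near 0 elsewhere is kept only through wt -SG carbo, so this rank is partly set by the filter and is no test. From these lists, 6 promoters are shown because they carry elements found in many promoters of these lists. Promoters are from RefSeq (GRCh38.p14), from 200 bases before to 20 bases from the transcription start, 5′ to 3′ along the gene's strand, with matches on either strand in capitals. For 3 genes of mitosis the capitals mark TTTGAA, the core of the cell cycle homology region, and CCAAT, the NF-Y box. These are ASPM, a spindle pole protein (chr1:197146650-197146869, minus strand), CCNB2, a cyclin of mitotic entry (chr15:59104946-59105165, plus strand), and CENPA, the histone of centromeres (chr2:26785856-26786075, plus strand).
ASPM: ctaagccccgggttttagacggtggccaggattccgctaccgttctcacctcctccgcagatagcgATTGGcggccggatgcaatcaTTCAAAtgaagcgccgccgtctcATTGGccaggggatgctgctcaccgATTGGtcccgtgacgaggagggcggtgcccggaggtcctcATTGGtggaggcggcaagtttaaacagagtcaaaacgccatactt
CCNB2: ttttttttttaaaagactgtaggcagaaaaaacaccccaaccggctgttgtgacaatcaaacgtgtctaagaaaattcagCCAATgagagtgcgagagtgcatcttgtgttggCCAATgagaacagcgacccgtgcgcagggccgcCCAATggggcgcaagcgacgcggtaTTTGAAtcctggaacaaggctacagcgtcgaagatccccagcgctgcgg
CENPA: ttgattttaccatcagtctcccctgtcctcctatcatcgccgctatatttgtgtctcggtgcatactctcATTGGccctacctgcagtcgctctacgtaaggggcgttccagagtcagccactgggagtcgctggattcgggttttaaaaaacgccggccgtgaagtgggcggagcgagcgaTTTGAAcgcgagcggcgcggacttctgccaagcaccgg

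For 3 NF-kB targets the capitals mark the NF-kB motif. These are IL32, a cytokine (chr16:3065203-3065422, plus strand), BIRC3, an inhibitor of apoptosis (chr11:102317284-102317503, plus strand), and TNFAIP3, a feedback inhibitor of the pathway (chr6:137867059-137867278, plus strand).
IL32: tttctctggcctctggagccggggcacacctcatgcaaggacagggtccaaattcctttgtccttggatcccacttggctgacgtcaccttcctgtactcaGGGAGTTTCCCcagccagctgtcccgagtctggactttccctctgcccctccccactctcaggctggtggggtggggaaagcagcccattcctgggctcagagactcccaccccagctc
BIRC3: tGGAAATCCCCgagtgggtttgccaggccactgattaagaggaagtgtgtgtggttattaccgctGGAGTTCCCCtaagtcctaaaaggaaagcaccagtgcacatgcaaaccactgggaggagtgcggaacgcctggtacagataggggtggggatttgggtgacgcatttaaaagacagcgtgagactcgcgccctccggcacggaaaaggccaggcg
TNFAIP3: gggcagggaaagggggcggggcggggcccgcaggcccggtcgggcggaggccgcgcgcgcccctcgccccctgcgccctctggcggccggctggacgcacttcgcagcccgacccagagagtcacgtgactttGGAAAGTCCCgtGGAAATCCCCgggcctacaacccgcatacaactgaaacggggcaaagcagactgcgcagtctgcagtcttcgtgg

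Of the 39 genes in the list of G2/M and mitosis, 32 were matched to a promoter. Over windows of 300 bases, 22 of these 32 held TTTGAA (68.8%, against 15.4% of all 27305 promoters) and 27 held CCAAT (84.4% against 35.7%). The E2F-like element GGCGGGA was in 9 of the 32 (28.1% against 15.5%), in 20 of 39 promoters of DNA replication genes (51.3%) and in 16 of 29 promoters of p53 targets (55.2%). In these other 2 families TTTGAA was in 1 promoter each (2.56% and 3.45%), and CCAAT in 21 of 39 (53.8%) and 14 of 29 (48.3%). The NF-kB motif was in 12 of 17 promoters of NF-kB targets (70.6%, against 13.6% of all), in 5 of the G2/M promoters (15.6%), 7 of the DNA replication promoters (17.9%) and 7 of the p53 target promoters (24.1%). Of the NF-kB target promoters, 2 held CCAAT (11.8%), 4 held GGCGGGA (23.5%) and 0 held TTTGAA. These matches describe the letters in the windows and say nothing of binding.

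The difference between the lines persisted without serine and glycine, and it was made mostly by the response of wt cells. Without serine and glycine, carboplatin raised most tested p53 targets and interferon-stimulated genes in wt cells. It lowered most genes of mitosis, DNA replication, crosslink repair and serine synthesis there. NF-kB targets that passed the count filter also rose in wt cells, but that filter partly sets this result. At most of the same genes cis cells moved less, or not past the test. The log2 carboplatin response of the 2 lines differed at 8757 of 15803 genes (55.4%; edgeR's quasi-likelihood interaction test, Benjamini-Hochberg adjusted p under 0.05), 4398 with the higher (more positive) response in wt cells (27.8%) and 4359 with the lower (27.6%). In bulk libraries, fewer cells of one state and less RNA of a gene per cell cannot be told apart. In the paper's cell counts, deprived cis cells stopped growing while wt cells kept growing, and adding carboplatin to the deprivation led to death of cis cells. The responses here are of transcripts, not of growth or survival, and the state of the sequenced cells was not tested.

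Leaving out library 11 gave 9264 calls of 16319 genes (56.8%; 4512 higher and 4752 lower). Of the 8757 calls, 8356 kept their sign and call without it, none turned direction while called, and 401 lost the call. Leaving out libraries 23 and 24 gave 7359 calls, of which 6991 were shared with the 8757 in the same direction and 0 in the opposite direction. On total counts in place of the TMM scale, the share of calls that were higher in wt cells was 42.3% in place of 50.2%, and the median difference of all genes was -0.10 in place of -0.00.

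In wt cells 10676 of 15803 genes changed with carboplatin (67.6%; 5295 rose and 5381 fell), with 10764 without library 11 (66%; 33.3% of the genes tested rose and 32.6% fell) and 11147 without libraries 23 and 24 (66.3%; 33% rose and 33.3% fell). In cis cells 2240 changed (14.2%; 852 rose, 5.39% of the genes tested, and 1388 fell, 8.78%), and here the libraries that stand apart mattered. The count for cis cells was 3967 without library 11, 164 without libraries 23 and 24 (99 rose and 65 fell) and 1545 without all 3 libraries. Leaving out any single cis library moved it as well, to 1233, 902 and 1032 without libraries 19, 20 and 21 and to 3435, 1046 and 850 without libraries 22, 23 and 24. The direction of the cis calls also rested on the scale: 38.0% were rises on the TMM scale and 63.5% on total counts (1189 rose and 684 fell).

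The wt responses were also larger in size, whatever their call. Over 11729 genes with a mean of at least 50 counts, the median absolute response was 0.449 log2 units in wt and 0.121 in cis cells, and the wt response was the larger in 82.9% of the genes. Responses of at least 1 log2 unit were fitted for 2143 genes in wt and 127 in cis cells. Across these genes the slope of the cis on the wt response was 0.0566, with a Pearson correlation of 0.193; genes within the same libraries are not independent, so no p is given. The plot of both responses shows a cloud that is wide along the wt axis and flat along the cis axis.

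**Figure D1:**
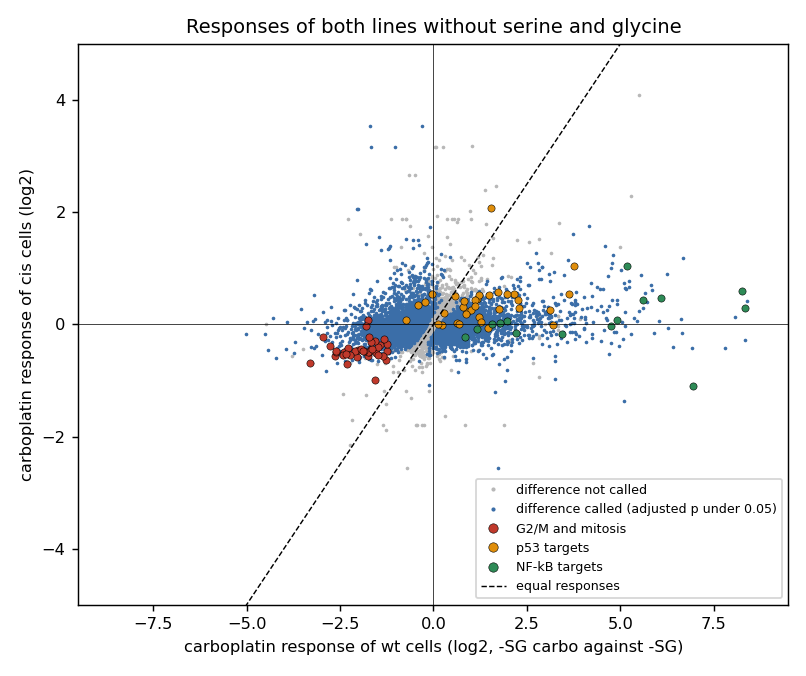
Carboplatin response without serine and glycine of each gene with a mean of at least 50 counts, wt cells on the x axis and cis cells on the y axis (log2, 3 libraries a condition), in blue where the difference was called, with all tested members of 3 gene lists as large points and a dashed line of equal responses. The cloud spreads along the wt axis (median absolute response 0.449) and stays flat along the cis axis (0.121), with the genes of G2/M at the left and NF-kB targets at the right.

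Of the 8757 genes with a line difference, 6883 were called in wt and not in cis cells (78.6%). A further 785 were called in both lines in the same direction with the larger response in wt cells, and 7 with the larger response in cis cells. Another 451 were called in both lines in opposite directions, 296 in cis cells alone and 335 in neither. The wt response was the larger in absolute size in 8077 of the 8757 (92.2%). These classes use the cis calls, so their sizes move with the same libraries: the class of opposite directions held 896 genes without library 11 and 15 without libraries 23 and 24.

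p53 targets rose in wt cells and, less, in cis cells. Of 35 targets in the list 34 were tested, and the wt response was higher in 26 and lower in 4 (27.8% and 27.6% of all genes were). The median difference was 0.70 against -0.00 for all genes. In wt cells 29 rose and 2 fell (33.5% and 34.1% of all genes did), with a median response of 1.13. In cis cells 22 rose and none fell (5.39% and 8.78% of all genes did), with a median of 0.32. Without libraries 23 and 24 the cis calls were 14 rises of 35 tested targets (0.589% of all genes then rose and 0.386% fell in cis cells). CDKN1A, the cyclin-dependent kinase inhibitor p21 (GRCh37 chromosome 6, 36644237 to 36655114), stood at 132, 133 and 135 CPM in wt -SG, at 1753, 1912 and 1714 in wt -SG carbo, at 159, 155 and 154 in cis -SG, and at 346, 282 and 304 in cis -SG carbo. Both lines rose without overlap, wt cells by 3.76 ± 0.06 (SE) log2 units and cis cells by 1.04 ± 0.06, a difference of 2.72 ± 0.08 (adjusted p = 1.51e-14, edgeR; 2.66 without library 11).

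PLK2, a kinase of the damage response, went from 11, 9.61 and 10.1 to 94.7, 92.1 and 92.0 CPM in wt cells. In cis cells it stood at 90.6, 92.9 and 87.6 CPM before and 94.6, 82.0 and 83.3 with the drug, so that untreated cis cells lay at the level of treated wt cells (difference 3.21 ± 0.09, adjusted p = 5.08e-15). FAS, a death receptor, rose from 11.3 to 12.4 CPM to 101 to 104 CPM in wt cells and from 37.6 to 39.8 to 44 to 45.7 in cis cells (difference 2.88, adjusted p = 6.01e-15), and its cis rise did not pass the test without libraries 23 and 24 (adjusted p = 0.169). GDF15, a stress cytokine, went from 64.4 to 83.7 CPM to 853 to 1060 in wt cells and from 236 to 246 to 273 to 409 in cis cells, where it rose by 0.54, a difference of 3.08 ± 0.20 (adjusted p = 2.41e-07). The 4 targets with the lower response in wt cells, also named after their values were seen, were CCNG1 (-0.79), FBXO22 (-0.76), APAF1 (-0.62) and DDB2 (-0.58).

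**Figure D2:**
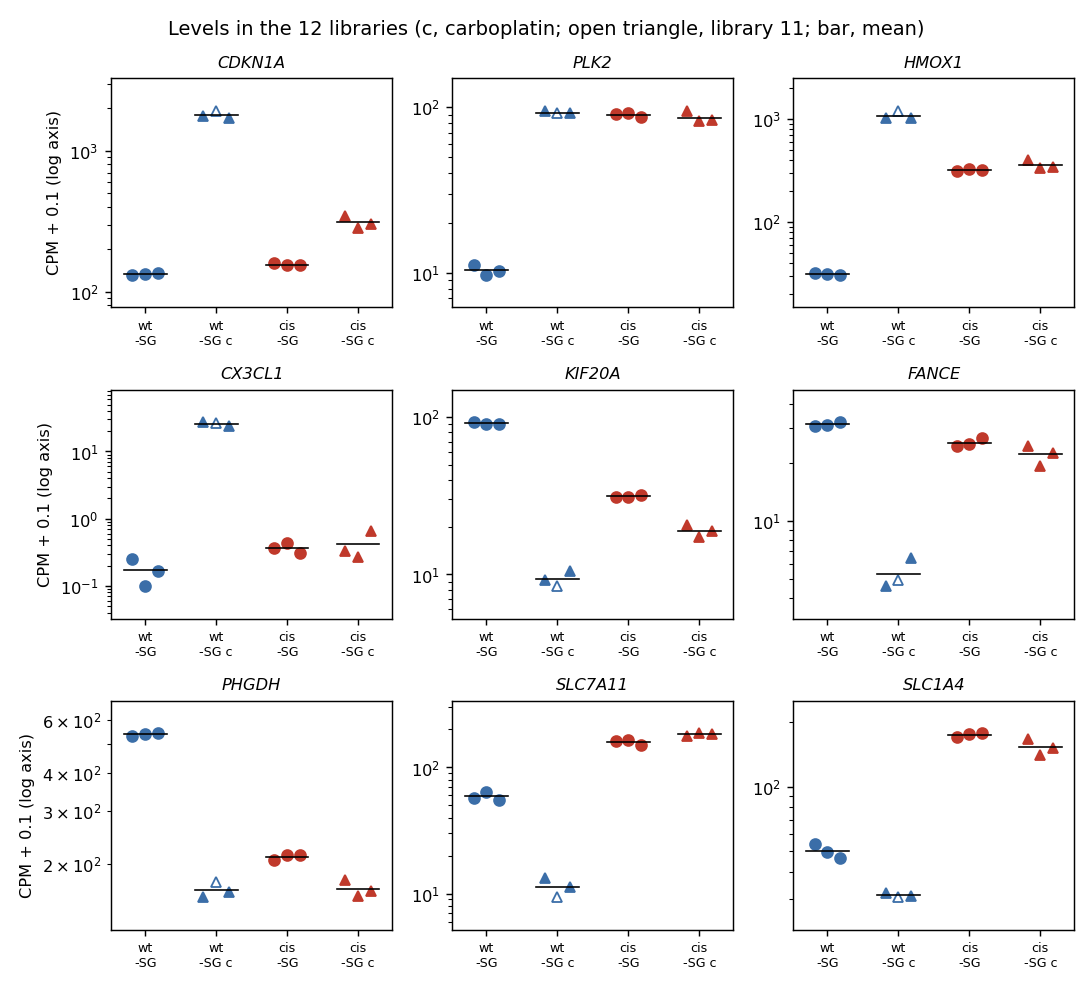
Levels of 9 genes in the 12 libraries without serine and glycine, in CPM plus 0.1 on a log axis, with points for libraries, a bar for the mean of each condition and an open triangle for library 11. CDKN1A rose in both lines, PLK2 of untreated cis cells (87.6 to 92.9 CPM) sat at the level of treated wt cells (92.0 to 94.7), and CX3CL1 stayed at or below 0.545 CPM in cis cells.

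Genes of G2 and mitosis fell in wt cells and, by much less, in cis cells. All 39 genes of the list fell in wt cells (34.1% of all genes did), with a median response of -1.81. In cis cells 34 fell (8.78% of all genes did), with a median of -0.48, or -0.42 without libraries 23 and 24. The wt response was the lower at 38 of 39 (27.6% of all genes were), with a median difference of -1.45. CDCA3 was the gene not called (-0.59, adjusted p = 0.0507). KIF20A, a kinesin of cytokinesis (chromosome 5, 137514408 to 137523412), went from 92.8, 91.0 and 91.1 to 9.09, 8.36 and 10.4 CPM in wt cells and from 31.1, 31 and 32.1 to 20.5, 17.2 and 18.9 CPM in cis cells. Neither line overlapped, and the falls of 3.29 and 0.69 log2 units differed by -2.61 ± 0.11 (adjusted p = 8.62e-13). Untreated cis cells lay between untreated and treated wt cells for this gene.

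ASPM, whose promoter is printed above, went from 237, 267 and 233 to 36.3, 22.9 and 35.8 CPM in wt cells, with the lowest value in library 11. In cis cells it stood at 231, 233 and 228 CPM and then at 185, 198 and 190, a response of -0.22 that did not pass the test (adjusted p = 0.263). The difference was -2.72 ± 0.19 (adjusted p = 2.04e-07) and -2.55 without library 11. NEK2, a centrosome kinase, and CENPE, a kinetochore motor, differed by -2.37 and -2.14 (adjusted p = 3.3e-12 and 6.82e-06).

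Genes of DNA replication fell in wt cells too, with exceptions. Of 44 tested, 36 fell and 4 rose in wt cells, where 34.1% and 33.5% of all genes did (median -0.81). In cis cells 30 fell, beside 8.78% of all genes (median -0.26, or -0.19 without libraries 23 and 24). The wt response was lower at 30 and higher at 6, beside 27.6% and 27.8% of all genes, with a median difference of -0.60. PRIM1, a primase subunit, went from 27.8, 26.1 and 27.5 to 9.87, 10.4 and 8.2 CPM in wt cells and from 26.5, 27.6 and 25.1 to 22.7, 21.9 and 21.7 in cis cells (difference -1.29 ± 0.11, adjusted p = 1.62e-08). PRIM2, the other primase subunit, POLE2, a polymerase subunit, and TK1, thymidine kinase, differed by -1.12, -1.12 and -1.10. The 6 with the higher response in wt cells, named after their values were seen, were the cyclins CCNE1 (1.07) and CCNE2 (1.0), the sliding clamp PCNA (0.86), the ribonucleotide reductase subunit RRM2 (0.82), GINS3 (0.36) and the flap endonuclease FEN1 (0.24).

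Repair genes moved by pathway. In the Fanconi anemia and homologous recombination list 24 of 27 tested genes fell in wt cells and 8 in cis cells (34.1% and 8.78% of all genes did), and none rose in either. The median cis response was -0.16, both with all libraries and without libraries 23 and 24. The wt response was lower at 23 (27.6% of all genes were), with a median difference of -0.92. FANCE, a subunit of the Fanconi core complex (chromosome 6, 35420115 to 35434881), went from 30.9, 31.2 and 32.2 to 4.51, 4.84 and 6.30 CPM in wt cells, and in cis cells from 24.2, 24.8 and 26.6 to 24.4, 19.2 and 22.4 CPM, where the libraries overlapped (difference -2.43 ± 0.14, adjusted p = 1.18e-10). BARD1, the partner of BRCA1, RAD54B, a recombination motor, and BRCA2, a mediator of recombination, differed by -2.01, -1.59 and -1.51. Nucleotide excision repair and translesion synthesis genes were higher at 6 and lower at 9 of 21, beside 27.8% and 27.6% of all genes, with a median difference of -0.20. The translesion polymerase genes POLI and REV3L were among the lower (-1.04 and -0.89). ERCC1, the partner of the nuclease XPF in removing platinum adducts, went the other way, from 94.2, 90.3 and 92.0 to 214, 245 and 213 CPM in wt cells and from 172, 175 and 181 to 219, 196 and 206 CPM in cis cells (difference 1.01 ± 0.08, adjusted p = 5.79e-09).

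Serine synthesis genes fell with carboplatin in wt cells. Of 20 tested serine and one-carbon genes, 13 fell and 4 rose in wt cells (34.1% and 33.5% of all genes did). In cis cells 7 fell and none rose (8.78% and 5.39% of all genes did), with a median of -0.13, or -0.07 without libraries 23 and 24. The wt response was lower at 12 and higher at 3 (27.6% and 27.8% of all genes were), with a median difference of -0.36. PHGDH, the first enzyme of serine synthesis (chromosome 1, 120191034 to 120286841), stood at 530, 540 and 541 CPM in wt -SG and fell to 155, 174 and 161 with carboplatin. In cis cells it stood at 205, 213 and 213 CPM and at 177, 156 and 162 with the drug, so that treated cells of both lines lay in one range. The response was -1.70 ± 0.05 in wt and -0.30 ± 0.05 in cis cells, and the difference was -1.40 ± 0.07 (adjusted p = 2.61e-11; -1.46 without library 11). The cis fall passed the test with all libraries (adjusted p = 0.00111) and not without libraries 23 and 24 (-0.23, adjusted p = 0.186).

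PSAT1 and PSPH, the next enzymes of the pathway, differed by -1.18 and -0.60 (adjusted p = 5.78e-11 and 3.95e-06), and the serine hydroxymethyltransferases SHMT1 and SHMT2 by -1.74 and -0.71. ALDH1L2, the mitochondrial formyltetrahydrofolate dehydrogenase, differed by -1.31. GLDC, the glycine decarboxylase, went the other way, from 19.9, 20.3 and 19.7 to 63.4, 58.6 and 57.9 CPM in wt cells, against 78.8, 82.8 and 81.4 and then 89.2, 77.5 and 75.2 CPM in cis cells (difference 1.56 ± 0.09, adjusted p = 5.78e-11). Treated wt cells stayed below cis cells of either condition for GLDC.

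ATF4 itself fell in wt cells, from 499 to 509 CPM to 333 to 377 CPM, and had a lower response than in cis cells by -0.41 ± 0.08 (adjusted p = 0.000199). Of its 34 tested targets outside serine synthesis, 25 fell and 4 rose in wt cells (34.1% and 33.5% of all genes did). In cis cells 16 fell and 1 rose (8.78% and 5.39% of all genes did), with a median of -0.17, or -0.08 without libraries 23 and 24. The wt response was lower at 23 and higher at 5 (27.6% and 27.8% of all genes were), with a median difference of -0.63. FGF21, a stress hormone, went from 11, 12.1 and 11.6 to 0.634, 0.503 and 0.459 CPM in wt cells and stayed at 0.636 to 1.70 CPM in all cis libraries (difference -3.97 ± 0.38, adjusted p = 8.16e-08). CTH, the last enzyme of cysteine synthesis, differed by -1.79. ATF3, a stress factor that p53 and other inputs also induce, was higher by 2.53 ± 0.08, with 77.4 to 78.1 CPM in cis -SG cells against 15.7 to 18 in wt -SG and 90.6 to 100 in wt -SG carbo.

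Amino acid transporters followed the same direction. None of 10 tested had a higher response in wt cells and 6 had a lower one (27.8% and 27.6% of all genes did), with a median difference of -0.70. In wt cells 9 fell (34.1% of all genes did), and in cis cells 1 rose and 2 fell (5.39% and 8.78% did). The median cis response was -0.153, or -0.045 without libraries 23 and 24. SLC7A11, the cystine importer (chromosome 4, 139085251 to 139163503), went from 57.5, 64.2 and 54.7 to 13.3, 9.30 and 11.1 CPM in wt cells and from 162, 165 and 150 to 179, 186 and 185 CPM in cis cells. It fell by 2.38 in wt and rose by 0.25 in cis cells, a difference of -2.64 ± 0.12 (adjusted p = 1.23e-11), and the cis rise did not pass the test without libraries 23 and 24 (0.19, adjusted p = 0.532). SLC6A9, a glycine transporter, and SLC1A5 and SLC38A1, neutral amino acid transporters, differed by -1.77, -0.98 and -0.60. SLC1A4, which carries serine and alanine, went from 53.8, 49.3 and 46.4 to 31.9, 30.5 and 30.7 CPM in wt cells and from 170, 175 and 177 to 167, 140 and 151 CPM in cis cells (difference -0.53 ± 0.09, adjusted p = 7.01e-05).

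NF-kB targets gave the largest list median. Of 21 listed, 15 had enough counts to be tested, and 6 were filtered out for low counts in these libraries, so the counts describe only those that passed. The filter keeps a gene that has enough counts in the 3 libraries of 1 condition. A gene near 0 elsewhere, such as CX3CL1, therefore passes only through wt -SG carbo, where it is high. The counts and medians of this list are thus partly set by the filter, in both media, and are no test. All 15 rose in wt cells (33.5% of all genes did) with a median response of 4.75. In cis cells none rose and 2 fell, IL32 and NFKB1 (5.39% and 8.78% of all genes did). The median cis response was 0.02, or 0.06 without libraries 23 and 24. The difference was higher at 15 of 15 (27.8% of all genes were), with a median of 4.15. Without library 11 it was higher at 14 of 16, where 27.6% of all genes were higher. CX3CL1, a membrane-bound chemokine (chromosome 16, 57406389 to 57418956), had 0.149, 0 and 0.0654 CPM in wt -SG and 27.1, 26.8 and 23.8 in wt -SG carbo. As wt -SG libraries had at most 3 counts, the rise in wt cells is at least 154-fold, against 0.212 to 0.332 CPM in cis -SG and 0.171 to 0.545 CPM in cis -SG carbo (adjusted p of the difference = 1.42e-07). TRAF1, a signalling adaptor, rose from 0.267 to 0.654 CPM to 26.6 to 31.4 in wt cells and stood at 0.797 to 1.27 and 1.43 to 1.47 CPM in cis cells (difference 5.61, adjusted p = 4.03e-10). ICAM1, an adhesion molecule, differed by 5.17 (adjusted p = 5.28e-10).

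IL32 rose from 1.74, 1.87 and 1.57 to 199, 229 and 207 CPM in wt cells and went from 1.81, 1.27 and 1.54 to 0.983, 0.684 and 0.436 CPM in cis cells, without overlap in either line. The difference was 8.03 ± 0.31 (adjusted p = 3.5e-13), and the fall of 1.09 in cis cells did not pass the test without libraries 23 and 24 (-0.63, adjusted p = 0.501). Interferon-stimulated genes followed, with 22 rises and 2 falls in wt cells and 3 rises and 1 fall in cis cells of 32 tested (33.5% and 34.1% of all genes in wt and 5.39% and 8.78% in cis cells). The cis calls were 10 rises and 1 fall without library 11 (12% and 12.3% of all genes). The median cis response was 0.07 with all libraries and 0.09 without libraries 23 and 24. The difference was higher at 20 and lower at 4 (27.8% and 27.6% of all genes were), with a median of 0.73. The lower ones, named after their values were seen, were IRF7 (-3.14), USP18 (-0.70), DDX60 (-0.59) and STAT2 (-0.25). IFIT3, an antiviral effector, OAS2, an RNA sensor enzyme, IRF1, a transcription factor, and IFI27 differed by 2.50, 2.47, 2.32 and 2.20 (adjusted p = 3.63e-12, 3.29e-06, 1.57e-13 and 0.00533).

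**Figure D3:**
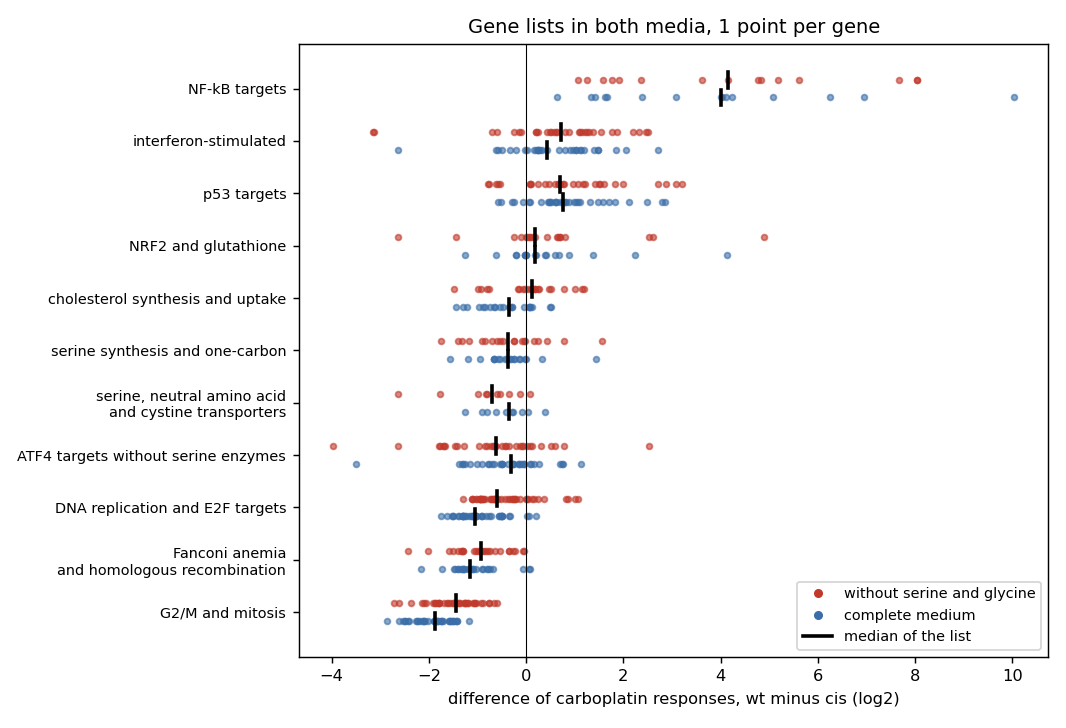
Line difference of the carboplatin response (wt minus cis, log2) of the tested members of 11 gene lists, without serine and glycine and in complete medium, with a point for each gene and a bar for the list's median. Without serine and glycine the medians run from -1.45 for G2/M genes to 4.15 for NF-kB targets, the latter partly set by the count filter. The bars of both media lie on the same side of 0 except for cholesterol genes (0.12 and -0.35).

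NRF2 and glutathione genes were higher at 9 and lower at 2 of 19, beside 27.8% and 27.6% of all genes, with a median difference of 0.19. HMOX1, heme oxygenase, accounted for the largest: 32.2, 31.1 and 30.8 CPM in wt -SG and 1015, 1191 and 1032 in wt -SG carbo. In cis cells it stood at 314, 328 and 321 CPM before and 404, 333 and 346 with the drug, a difference of 4.90 ± 0.10 (adjusted p = 8.94e-17). The ferritin genes FTH1 and FTL differed by 2.60 and 0.79, and both have many near-identical pseudogenes that can share their reads. The metallothionein MT2A, of a family with near-identical copies, was the 1 called gene of 2 tested in its list (2.75, adjusted p = 9.46e-09).

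BCL2 family genes were higher at 8 and lower at 3 of 15 tested, beside 27.8% and 27.6% of all genes, with a median difference of 0.62. MCL1, which guards against apoptosis, went from 572, 564 and 566 to 1219, 1240 and 1193 CPM in wt cells and stayed between 585 and 652 CPM in all 6 cis libraries (difference 1.15 ± 0.06, adjusted p = 2.25e-11). Pro-apoptotic members went both ways: BAK1 differed by 1.20 and PMAIP1 by 1.52, while HRK differed by -2.88.

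Platinum and copper transport genes showed 3 higher and 5 lower of 13 tested, beside 27.8% and 27.6% of all genes, with a median difference of -0.10. LRRC8A, a volume-regulated channel subunit that passes platinum drugs, differed by 1.21 and the copper chaperone ATOX1 by 0.94, while SLC47A1, an exporter of organic cations, differed by -1.06. ATP7A, a copper pump linked to platinum export, was called with all libraries (-0.69, adjusted p = 0.0439) and not without library 11 (-0.41, adjusted p = 0.0678).

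TCA cycle, pyruvate and isocitrate dehydrogenase genes were lower at 11 and higher at 2 of 24 (27.6% and 27.8% of all genes were), with a median difference of -0.12. IDH1, the cytosolic isocitrate dehydrogenase, went from 146 to 149 CPM to 35.1 to 38.6 in wt cells and from 135 to 139 to 115 to 122 in cis cells (difference -1.82 ± 0.07, adjusted p = 2.58e-13). IDH2, PC (pyruvate carboxylase) and SUCLG2 differed by -1.41, -2.17 and -1.04. NAD metabolism and PARP genes were higher at 8 and lower at 8 of 20, beside 27.8% and 27.6% of all genes, with a median of -0.12. NMNAT2, an NAD synthesis enzyme, rose from 2.62 to 3.13 CPM to 33.8 to 41.4 in wt cells and stood at 68.6 to 69.4 and 58.6 to 64.4 CPM in cis cells (difference 3.84 ± 0.12, adjusted p = 3.1e-14). PARP1, the main poly-ADP-ribose polymerase, fell by 0.90 in wt cells and by 0.20 in cis cells, a difference of -0.70 ± 0.08 (adjusted p = 4.15e-07). QPRT differed by -1.92, with at most 0.694 CPM in any of the 6 cis libraries without serine and glycine, and NAPRT and PARP3 by 1.40 and 1.22.

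Cholesterol genes and endoplasmic reticulum genes were called in each direction about as often as all genes (27.8% higher and 27.6% lower). Cholesterol genes were higher at 8 and lower at 5 of 23, with a median of 0.12. SQLE, a rate-limiting enzyme of the pathway, and NSDHL were higher (1.20 and 1.14), while LSS, lanosterol synthase, was lower (-1.49). Endoplasmic reticulum chaperones and unfolded protein response genes were higher at 4 and lower at 5 of 19, with a median of -0.03; CRELD2, SDF2L1 and DNAJB9 were higher (0.97, 0.85 and 0.39) and ATF6 lower (-0.91). None of 13 mitochondrially encoded genes was called. Their summed level was 26762 to 34001 CPM in cis -SG carbo and 39152 to 52173 CPM in cis -SG, and its part in the cis response was not tested.

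Over all protein-coding genes with a mean of at least 50 counts, the 8 highest differences were those of RUNX3 (8.62), C15orf48 (8.21), CX3CL1, IL32, SERPINA1 (7.98), INHBA (7.93), MMP9 (6.83) and IL23A (6.80). They were of 2 kinds. C15orf48, CX3CL1, IL32, SERPINA1, MMP9 and IL23A rose in wt cells and stayed at or below 1.81 CPM in all 6 cis libraries. RUNX3, a transcription factor, and INHBA, the activin A subunit, were already high in cis cells: RUNX3 had 0.0995, 0.107 and 0.0654 CPM in wt -SG, 31.8, 31.2 and 33 in wt -SG carbo, 83.4, 91.3 and 84.2 in cis -SG, and 77.5, 62.9 and 66.3 in cis -SG carbo. INHBA was at 0 in the wt -SG libraries, at 2.54, 1.76 and 1.51 CPM in wt -SG carbo and at 247 to 282 CPM in the cis libraries. Since their wt -SG libraries had at most 3 counts, the wt rise was at least 190-fold for RUNX3, at least 88.0-fold for SERPINA1 and at least 11.5-fold for INHBA.

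At the other end stood UNC5C (-5.24), CNNM1 (-4.85), FUT1 (-4.84), MOV10L1 (-4.32), PREX2 (-4.20), STRA6 (-4.11), CD248 (-4.06) and FGF21. For UNC5C, CNNM1, PREX2, STRA6 and CD248 the cis libraries of both conditions had at most 3 counts each, so these genes fell in wt cells and had no measurable response in cis cells, and their fitted differences depend on how counts near 0 are handled. FUT1, a fucosyltransferase, was measurable in both lines, with 17.2, 17.2 and 18.2 CPM falling to 0.352, 0.817 and 0.394 in wt cells and 4.46 to 4.76 against 2.85 to 4.97 CPM in cis cells (difference -4.84 ± 0.29, adjusted p = 1.65e-10). MOV10L1 fell at least 10.9-fold in wt cells. One of the conditions had at most 3 counts in all its libraries for 336 of the 8757 genes, all 6 cis libraries for 74 and all 6 wt libraries for 10.

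A small set went opposite ways in the lines, 304 with the rise in wt cells and 147 with the fall, although on total counts this split was 136 and 239. GPR84, an immune receptor for fatty acids, went from 4.78, 3.15 and 3.2 to 121, 137 and 124 CPM in wt cells and from 20.5, 23.2 and 22.7 to 9.13, 8.33 and 7.57 CPM in cis cells, without overlap in either line (difference 6.45 ± 0.15, adjusted p = 8.13e-16). COL1A1, a collagen chain, rose from 97.8, 102 and 99.1 to 1019, 857 and 978 CPM in wt cells and fell from 3.98, 3.87 and 3.56 to 1.68, 2.22 and 1.69 CPM in cis cells (difference 4.25 ± 0.16, adjusted p = 3.36e-13). Both cis falls also passed the test without libraries 23 and 24 (adjusted p = 0.00318 and 0.0125). COL1A1 is also a fibroblast marker: the 7 fibroblast markers summed to 861 to 894 CPM in wt -SG, 1689 to 2013 in wt -SG carbo, 10.2 to 12.3 in cis -SG and 8.82 to 9.13 in cis -SG carbo, FAP had at most 3 counts, PDGFRA and PDGFRB went the other way (-0.77 and -1.19), and the part of other cells in this was not tested. Of 5 tested fibroblast markers 1 was higher and 2 were lower, beside 27.8% and 27.6% of all genes. Only 6 of the 12 listed epithelial markers had enough counts to be tested, so their counts describe only those that passed. Of these 6, 3 were higher, the keratins KRT18 (4.10, adjusted p = 6.62e-12), KRT8 and KRT19, and none was lower. In wt cells 3 of these 6 rose and 1 fell, beside 33.5% and 34.1% of all genes. The 12 listed epithelial markers together summed to 184 to 209 CPM in wt -SG and 194 to 199 CPM in wt -SG carbo.

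In the other direction, ANKRD36C (-3.22), FAXDC2 (-2.85), LINC00342 (-2.74) and SLC7A11 fell in wt and rose in cis cells. For LINC00342 the cis rise sat in the libraries with many reads on no feature, at 8.90 and 5.88 CPM in libraries 23 and 24 against 3.01 in library 22, and for ANKRD36C, a member of a family of near-identical copies, at 12.9 and 10.2 against 5.78 CPM. None of these 4 rises passed the test without libraries 23 and 24, and neither did the RUNX3 fall (-0.13, adjusted p = 0.503).

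The plot of counts with libraries left out sets these sensitivities side by side.

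**Figure D4:**
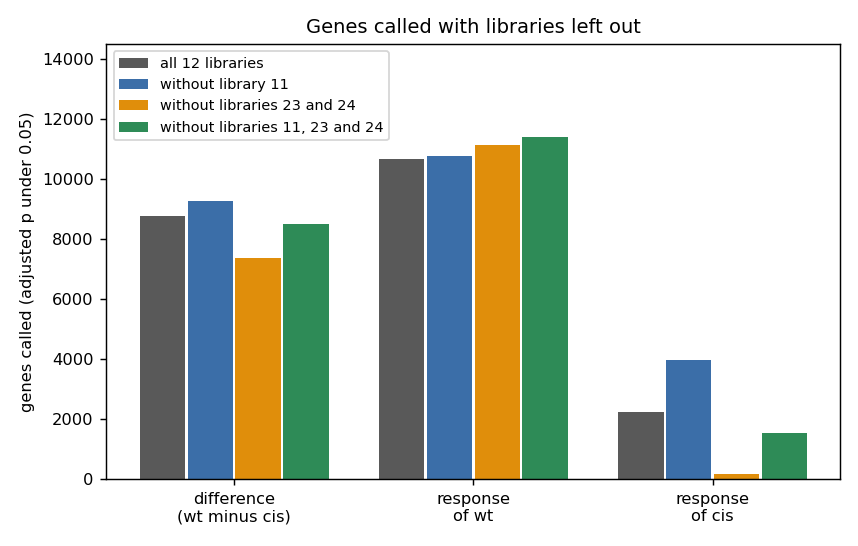
Number of genes called (adjusted p under 0.05) for the line difference and for the response of each line without serine and glycine, with all 12 libraries and with libraries 11, 23 and 24 left out. The counts for the difference (7359 to 9264) and for wt cells (10676 to 11396) change little beside those for cis cells, which run from 164 to 3967.

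The same comparison in complete medium came from 12 other libraries, 3 each of wt, wt carbo, cis and cis carbo, and shares none with the first. For these libraries the paper does not say if complete medium was homemade RPMI with dialyzed serum or the RPMI of routine culture. If it was the latter, the serum differs too and cannot be told apart from the missing serine and glycine. There the response differed at 8807 of 15300 genes (57.6%; 4166 higher, 27.2%, and 4641 lower, 30.3%). Carboplatin changed 11319 genes in wt cells (74%; 36.6% of the genes rose and 37.3% fell) and 3100 in cis cells (20.3%; 9.1% rose and 11.2% fell). Of 15068 genes tested in both media, 6371 were called in both, 6067 in the same direction and 304 in the opposite one. Those called in the same direction were 70.6% of the calls without serine and glycine and 69.1% of those in complete medium. Over 11641 genes with a mean of at least 50 counts in both media, the slope of the difference without serine and glycine on that in complete medium was 0.960 and the Pearson correlation 0.809, as a description over genes that share libraries. The median absolute difference was 0.457 without serine and glycine and 0.351 in complete medium, and the common dispersion was 0.00411, or 0.00168 without library 11, and 0.000757.

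Whether the line difference itself changed with the medium was tested in a single model over the 24 libraries. It did at 3804 of 16406 genes (23.2%; 2055 with the higher difference without serine and glycine, 12.5%, and 1749 with the lower, 10.7%), at 4127 without library 11, at 2646 without libraries 23 and 24 and at 825 in a fit of all 36 libraries. Of the 8776 genes called in complete medium, 6020 were not called in this test and 2756 were (31.4%). Of these 2756, the difference kept its sign and was larger without serine and glycine at 1382, smaller at 599, and changed sign at 775.

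**Figure D5:**
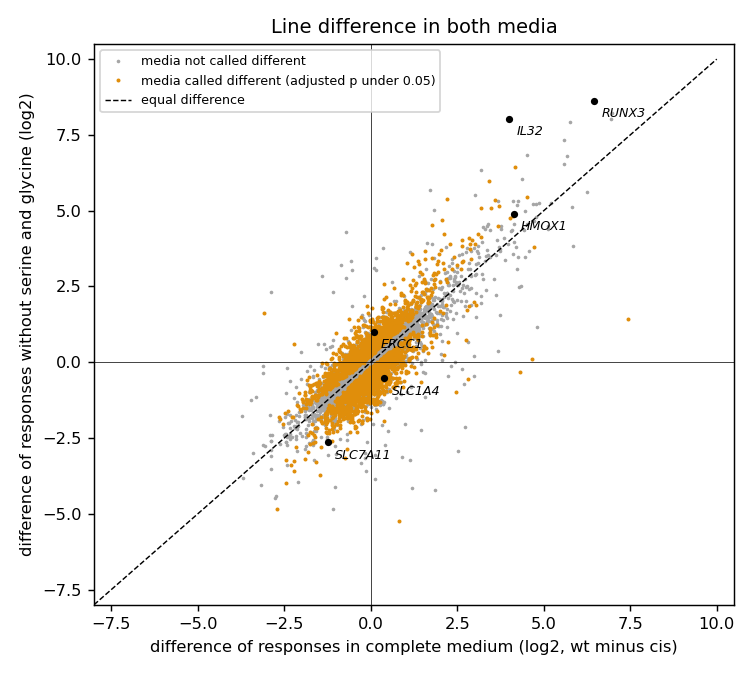
Line difference of the carboplatin response (wt minus cis, log2) in complete medium on the x axis and without serine and glycine on the y axis, a point for each gene with a mean of at least 50 counts, in orange where the difference changed with the medium (adjusted p under 0.05). The points follow the diagonal (slope 0.960, Pearson correlation 0.809), with orange points on both sides of it.

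The medians of the lists described so far lay on the same side of 0 in both media, except for cholesterol genes, and some changed in size. Of all genes, 27.2% were higher and 30.3% lower in complete medium, and the change between media was higher at 12.5% and lower at 10.7%. p53 targets had a median difference of 0.75 in complete medium, with 27 higher and 4 lower, and the change between media was higher at 9 and lower at 4 of 34. CDKN1A was among the higher: its difference was 1.83 in complete medium, where it rose from 91.9, 92.4 and 92.9 to 321, 319 and 325 CPM in cis cells and from 143, 146 and 141 to 1759, 1798 and 1757 CPM in wt cells, and the difference was 0.86 ± 0.08 larger without serine and glycine (adjusted p = 3.96e-09). FAS differed by 2.86 in complete medium, with no change called (-0.02, adjusted p = 0.975). NF-kB targets had a median of 4.0 in complete medium, with 14 of 15 higher, and 4 of 17, IL32, TNFAIP2, BIRC3 and NFKB1, had a larger difference without serine and glycine. Interferon-stimulated genes had a median of 0.38 in complete medium, with 19 higher and 2 lower.

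The cell cycle lists had less negative median line differences without serine and glycine than in complete medium. Of all genes, 30.3% were lower and 27.2% higher in complete medium, and the change between media was higher at 12.5% and lower at 10.7%. G2/M genes had a median of -1.88 in complete medium, with all 39 lower. Of these, 24 of 39 had a less negative difference without serine and glycine, with a median change of 0.36. DNA replication genes had a median of -1.05, with 41 lower and 1 higher of 44, and 34 of 44 had a less negative or more positive difference without serine and glycine (median change 0.45). No member of either list changed the other way past the test. The responses of both lines differed between media. For G2/M genes the median wt response was -2.05 in complete medium and -1.81 without serine and glycine, and the median cis response -0.16 and -0.48. For DNA replication genes these were -1.17 and -0.81 in wt cells and -0.125 and -0.26 in cis cells. CCNE1 and RRM2 were at 0.01 and -0.49 in complete medium against 1.07 and 0.82 without serine and glycine. The Fanconi anemia and homologous recombination list had a median of -1.15 with 24 lower. The change was called higher at 6 of 27 and lower at 1, BARD1 (-0.64), beside 12.5% and 10.7% of all genes.

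Serine and one-carbon genes had a median of -0.36 in both media, with 13 lower and 2 higher of 20 in complete medium (30.3% and 27.2% of all genes were). The change was called higher at 3 and lower at 6 of 20, beside 12.5% and 10.7% of all genes. PHGDH differed by -1.20 in complete medium, where it went from 472, 496 and 477 to 174, 181 and 173 CPM in wt cells and from 152, 149 and 158 to 132, 122 and 132 CPM in cis cells, and the change with the medium was small (-0.23 ± 0.08, adjusted p = 0.0383). PSAT1 changed by -0.26 (adjusted p = 0.00333), while PSPH gave 0.02 (adjusted p = 0.927). Transporters had a median of -0.35 in complete medium, with 6 lower and 1 higher, and 5 of 10 had a more negative difference without serine and glycine. SLC1A4 turned direction: in complete medium it went from 24.1, 25.8 and 26.9 to 31.3, 30.1 and 29.1 CPM in wt cells and from 95.6, 92.4 and 93.5 to 87.4, 82.0 and 84.1 in cis cells (difference 0.39, adjusted p = 6.87e-07), and the change with the medium was -0.96 ± 0.10 (adjusted p = 6.6e-08). SLC7A11 and SLC6A9 changed by -1.42 and -0.91 (adjusted p = 2.33e-08 and 4.55e-09).

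ATF4 targets had a median of -0.32 in complete medium, with 23 lower and 7 higher (30.3% and 27.2% of all genes were). The change was lower at 16 and higher at 3 of 34 (10.7% and 12.5% of all genes were), with a median of -0.23. CTH changed by -1.28 (adjusted p = 3.82e-06) and ATF3 by 1.38 (adjusted p = 3.96e-09). Cholesterol genes were lower at 15 and higher at 4 in complete medium, with a median of -0.35, and the change was higher at 13 and lower at 1 of 23, with a median of 0.46. TCA cycle genes were lower at 18 and higher at 0 of 24 in complete medium (median -0.39). The change was higher at 7 and lower at 1 of 24, beside 12.5% and 10.7% of all genes. ERCC1 differed by 0.09 in complete medium, where both lines rose, wt cells from 101, 97.2 and 102 to 202, 204 and 199 CPM and cis cells from 88.9, 88.7 and 94.3 to 172, 168 and 177. Its change with the medium was 0.89 ± 0.09 (adjusted p = 9.37e-09), with cis -SG cells already at 172 to 181 CPM before the drug. SDF2L1 changed by 1.23, from -0.41 to 0.85 (adjusted p = 8.82e-06).

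In complete medium, 27.2% of all genes were higher and 30.3% lower. There, nucleotide excision repair and translesion synthesis genes were higher at 4 and lower at 9 of 21, and NRF2 and glutathione genes at 9 and 3 of 19. Endoplasmic reticulum genes were higher at 5 and lower at 10 of 19, BCL2 family genes at 8 and 3 of 14, and NAD metabolism and PARP genes at 9 and 7 of 20. Over all genes with a mean of at least 50 counts over the 24 libraries, the largest called changes were UNC5C (-6.05), SLC34A2 (-6.02), KLHL14 (-4.69), ZNF432 (-4.60) and MAP2K6 (-3.47) in one direction and GALNT18 (4.68), IL32 (4.0), EGR4 (3.15), CYB5R2 (2.80) and ITGAX (2.71) in the other. Most of them were close to 0 in one line: the cis libraries of UNC5C, SLC34A2, KLHL14, ZNF432 and MAP2K6 lay at or below 0.565 CPM in both media, those of CYB5R2 and ITGAX at or below 0.926 CPM, and the wt libraries of GALNT18 at or below 0.224 CPM. EGR4, an early response factor, rose in wt cells from 0.131 to 0.214 CPM to 7.82 to 8.61 without serine and glycine and from 0.678 to 0.785 to 6.42 to 8.48 in complete medium, while cis cells stood at 5.36 to 6.58 CPM before the drug without serine and glycine and at 0.565 to 0.997 in complete medium. ITGAX, an integrin subunit, rose in wt cells in both media, to 52.3 to 55.8 and 30.6 to 32.4 CPM.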

How the data were processed

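RNA-seq of A2780 cells was analysed in 24 libraries of wt and cis cells, 3 for each condition; the condition of a library came from its label. Total RNA was made into libraries with the SENSE kit. Alignment by the authors used STAR (GRCh37.p13), counting used HTSeq over the exons of GENCODE v19, and the deposited values are raw counts per gene and library. The sources used here do not name the strand setting, so overlapping genes and near-identical copies are uncertain. The 3 entries of the table that name no gene were left out of library sizes and tests. They include reads on no feature, given as a percentage. Symbols came from GENCODE v44 mapped to GRCh37 and promoters from RefSeq (GRCh38.p14).

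The tests ran in edgeR 4.0.16 (R 4.3.3): TMM scaling, filterByExpr, estimateDisp, robust glmQLFit and glmQLFTest, with genes called at a Benjamini-Hochberg adjusted p under 0.05. The difference is (wt -SG carbo minus wt -SG) minus (cis -SG carbo minus cis -SG), in log2 units, in a fit of the 12 libraries, and both responses are from the same fit. The change with the medium is that difference minus the one in complete medium, in a fit of 24 libraries. CPM are on the TMM scale. The standard error is the absolute log2 value divided by the square root of F. A fold against a condition with at most 3 counts in every library was computed against 3 counts per library and is a lower bound. Sampling noise is set by 14732873 to 20441582 counts on genes per library; no pair of libraries agreed within it (lowest mean chi-square over genes 1.20).

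Lists and named genes were chosen with earlier results of these data known. Named were 11 fixed genes, up to 4 called genes of each list with the largest difference, up to 8 of all genes in each direction, up to 5 for the change with the medium and up to 4 of those going opposite ways, each with a mean of at least 50 counts. Lists are described by counts and medians, without a test. Alternatives were DESeq2 1.42.0, its size factors, total counts, 2 other filters, a fit of all 36 libraries, removal of the length trend, protein-coding genes alone, limma 3.58.1 voom with quality weights, a log2 threshold of 1, a mean of 500 counts, list means and each library left out. Leaving out libraries 11, 23 and 24 together, or 23 and 24 for lists, classes, sizes and the change with the medium, leave-one-out for sizes, and the NF-kB motif were added after seeing the data. The test was tried on simulated counts. Plots were drawn with matplotlib 3.10.9 in Python 3.11.15. Some members of the lists are not reported here by name.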

Additional observations from a re-analysis of the deposited data

Results flagged for a closer look

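Carboplatin responses differed between the lines at 8757 genes by the interaction test, and that difference itself differed between media at 3804, or at 825 in a fit of all 36 libraries. At 451 genes both lines changed in opposite directions without serine and glycine, or at 15 without libraries 23 and 24, and 304 genes were called in both media with opposite signs of the line difference. Named genes called in opposite directions with all libraries, with the difference of their responses, were RUNX3 (8.62), IL32 (8.03), GPR84 (6.45) and COL1A1 (4.25) with the rise in wt cells, and ANKRD36C (-3.22), FAXDC2 (-2.85), LINC00342 (-2.74) and SLC7A11 (-2.64) with the fall in wt cells. Without libraries 23 and 24 the cis change passed the test for GPR84 and COL1A1 and for none of the other 6.

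The line difference was lower without serine and glycine than in complete medium, by the test over both media, for UNC5C (-6.05), SLC34A2 (-6.02), KLHL14 (-4.69), ZNF432 (-4.60) and MAP2K6 (-3.47), and higher for GALNT18 (4.68), IL32 (4.0), EGR4 (3.15), CYB5R2 (2.80) and ITGAX (2.71). Outside the gene counts, 17.9% of the reads of library 23 and 14.9% of library 24 were on no annotated feature, above the untreated cis libraries in the same medium (6.92% to 7.95%).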

How the results depend on the processing

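All values are compared with those of the 12 libraries on the TMM scale. Of 1664 alternative values of the line difference of 104 named genes, 1629 kept direction and side of the threshold, 29 lost the call, 2 gained one and 4 changed sign, none of them called: MT-CO1 (-0.03) and MT-ND4 (-0.14) without library 11, and ZNF432 without libraries 23 and 24 (-0.15) and without cis -SG replicate 3 (-0.80; 0.40 without cis -SG replicate 1, the other end of its range). Of 314 other values 198 stayed within 1.5 times a count or 1 SD and 116 did not. No paired analysis was possible because the labels carry no replicate numbers inside a condition. The replicate numbers used here follow the order of the library numbers. The cause of these movements was not tested, except that a log2 threshold of 1 and the fits with fewer genes or libraries change counts by construction. Depth limits genes with at most 3 counts in a condition.

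With an absolute log2 of at least 1 as well, calls fell to 3137 for the line difference, 3568 for the wt response, 274 for the cis response, 2174 for the difference in complete medium and 560 for the change with the medium. In a fit of all 36 libraries they were 1141 for the cis response, 5240 in complete medium and 825 for the change with the medium. The cis response had 6579 calls with voom weights, 164 without libraries 23 and 24, 3967 without library 11, and 850 to 3967 over single libraries left out. The slope of the cis on the wt response was 0.0628 without library 11, 0.0516 over genes with a mean of at least 500 counts, 0.0701 without libraries 23 and 24, and 0.0486 to 0.0628 with each library left out. The median absolute wt response was 0.439 without library 11, 0.453 on total counts, 0.388 over genes with at least 500 counts and 0.439 to 0.456 with each library left out. The median absolute cis response was 0.106 on total counts, 0.109 over genes with at least 500 counts, 0.107 without libraries 23 and 24 and 0.109 to 0.145 with each library left out.

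Without library 11 the classes held 896 genes of opposite directions (521 higher and 375 lower in wt cells), 1337 of the same direction larger in wt and 18 larger in cis cells, and 509 called in cis cells alone. Without libraries 23 and 24 these were 15 (8 and 7), 100, 2 and 18, with 156 in neither. On total counts, opposite directions split into 136 and 239, with 11 larger in cis cells.

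Median differences of lists that moved without library 11 were -0.19 for NAD metabolism and PARPs, 3.88 for NF-kB, 0.09 for NRF2, -0.18 for TCA cycle, 0.84 for interferon-stimulated genes, 1.38 for metallothioneins, 2.30 for epithelial markers, -0.03 for platinum transport and -0.64 for transporters. Without libraries 23 and 24 they were -0.69 for ATF4 targets, -0.64 for DNA replication, -1.53 for G2/M, -0.27 for NAD metabolism and PARPs, 4.03 for NF-kB, 0.12 for NRF2, -0.21 for TCA cycle, 0.03 for cholesterol, -0.12 for endoplasmic reticulum genes, -0.65 for fibroblast markers, 0.66 for interferon-stimulated genes, 2.58 for metallothioneins, 3.99 for epithelial markers, -0.28 for platinum transport and -0.65 for transporters.

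On total counts, where the median of all genes was itself lower by about the same amount (-0.10), they were -0.73 for ATF4 targets, 0.52 for BCL2, -0.70 for DNA replication, -1.02 for Fanconi anemia, -1.55 for G2/M, -0.22 for NAD metabolism and PARPs, 4.05 for NF-kB, 0.09 for NRF2, -0.23 for TCA cycle, 0.02 for cholesterol, -0.13 for endoplasmic reticulum genes, -0.88 for fibroblast markers, 0.62 for interferon-stimulated genes, -0.31 for nucleotide excision repair, 2.27 for epithelial markers, 0.59 for p53 targets, -0.20 for platinum transport, -0.47 for serine and one-carbon genes and -0.81 for transporters. With DESeq2 they were 4.24 for NF-kB, -0.41 for fibroblast markers, 0.65 for interferon-stimulated genes, 3.84 for epithelial markers, 0.03 for platinum transport and -0.60 for transporters. List means in place of medians were 0.27 for BCL2, -0.42 for DNA replication, 0.17 for NAD metabolism and PARPs, 0.53 for NRF2, -0.33 for TCA cycle, 0.04 for cholesterol, 0.03 for endoplasmic reticulum genes, 0.05 for fibroblast markers, 0.65 for interferon-stimulated genes, 2.45 for epithelial markers, 0.90 for p53 targets, 0.21 for platinum transport and -0.85 for transporters, so that the mean and median differed in sign for NAD metabolism, endoplasmic reticulum genes, fibroblast markers and platinum transport.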
